A study of Rattus norvegicus with 12 samples.

Results

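Genes of the urea cycle and of amino acid breakdown were compared between the livers of PCK rats and control rats. The set holds 51 enzymes chosen by gene symbol. Of these, 48 had a probe set among the 16592 named genes of the array table, and Gstz1, Afmid and Amt had none and were not analysed here. The rule uses gene symbols alone and no signal value. The PCK group was 6 cystic livers of male PCK rats of 10 weeks, labelled with the Crj:CD/SD strain, a Sprague Dawley stock. PCK rats carry a mutation in Pkhd1, which encodes the ciliary protein fibrocystin, and develop cysts in the bile ducts and kidneys. The control group was 6 healthy livers of male Sprague Dawley rats of the same age. All rats had free access to a diet with 19% protein and to water, and no drug is named for either group. The strain labels differ between the groups, so stock and disease cannot be told apart. The labels call the livers biological replicates and name neither feeding state nor hour at death.

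The liver is the main site where amino nitrogen is turned into urea. Aminotransferases and dehydrogenases move the nitrogen of amino acids onto glutamate and aspartate, ammonia enters mitochondrial carbamoyl phosphate, and the urea cycle joins the nitrogen atoms and releases urea through arginase. The remaining carbon skeletons feed glucose synthesis, ketone bodies or the citric acid cycle. Enzymes of the urea cycle, of serine, histidine and glutamine breakdown lie mostly in hepatocytes near the portal vein, and fasting, glucagon, glucocorticoids and dietary protein are known to raise many of them.

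Most of these enzymes were slightly lower in PCK livers, and a few were much lower. With limma at an adjusted p threshold of 0.05 over all genes, 36 of the 48 changed, 30 of them lower and 6 higher in PCK livers. Over all 16592 genes 38.3% were called, 21.0% lower and 17.4% higher. The set is bright, and bright genes were called more often. Among the 2081 genes with a mean log2 signal of 9 or more, 61.2% were called, 31.2% lower and 30.0% higher, while of the 42 members at that level 31 were called, 26 lower and 5 higher. The median difference of the 48 members, PCK minus control, was -0.19 on the log2 scale, against -0.01 for the bright genes and -0.0067 for all genes. A fall of at least 1.5-fold was called in 10 members, where 1.95% of all genes fell that far, and a rise of that size in 0, where 2.68% of all genes rose that far. The falls of at least 2-fold were those of Gpt, Hal and Pipox, 3 members, where 0.561% of all genes fell that far. In 19 members every PCK value lay below every control value, as in 10.6% of all genes, and in 2 members every PCK value lay above, as in 11.0%. Bright genes also changed by these amounts more often. Of the 2081 bright genes 129 fell and 120 rose at least 1.5-fold, and 39 fell at least 2-fold. Of the 42 members at that level 7 fell and 0 rose at least 1.5-fold, and 2 fell at least 2-fold. Every PCK value lay below every control value in 424 bright genes and above in 410, and in 16 and 2 of the 42 members. Counts within single pathways, given below, rest on few genes and are to be read against these shares.

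**Figure D1:**
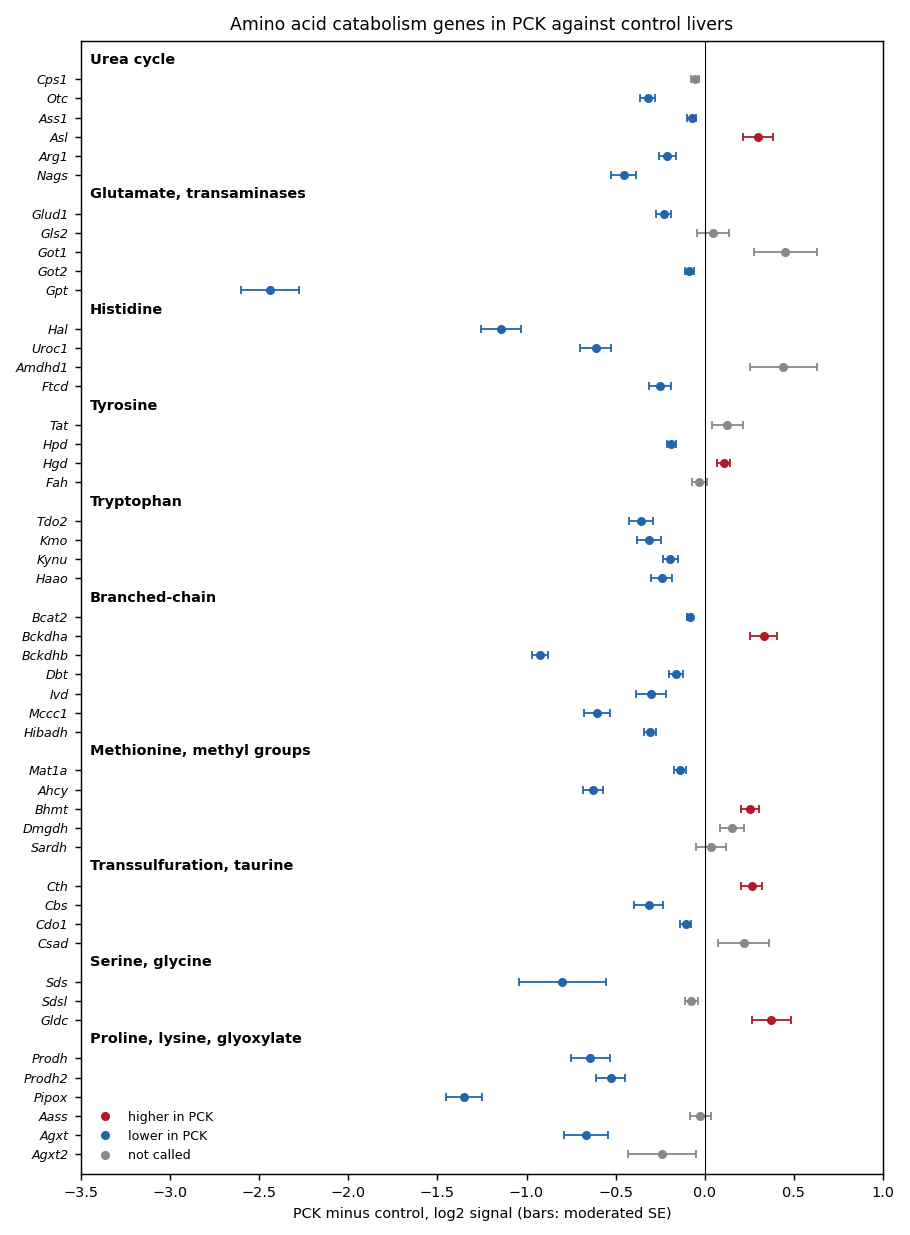
Difference between PCK and control livers for the 48 measured enzymes, grouped by pathway (x axis: PCK minus control in log2 signal, points: difference, bars: moderated SE, colour: limma call at an adjusted p of 0.05). Of the 48 points 30 are called lower, 6 higher and 12 are not called. Gpt lies farthest left at -2.44, which, apart from sampling error, is a lower bound on its fall because its PCK signal is near background.

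General hepatocyte genes did not move in 1 direction. Of 9 measured markers, which include albumin, transthyretin and transferrin, 1 rose and 2 fell, and the called members were Hpx, the heme carrier hemopexin (0.16), Rbp4, the retinol carrier (-0.10), and Serpina1, a protease inhibitor (-0.07). Their summed linear signal ran from 109728 to 111219 in PCK livers and from 109036 to 111035 in control livers. Albumin, the brightest gene on every array, was held at 1 value by the normalization. The 9 markers lay near the top of the signal range, with a median mean signal of 13.60. Every array holds the same set of values, so the sum of these markers could move little. It cannot show whether hepatocyte content differed. Markers of other cells moved more. Of 12 bile duct markers 11 rose and 0 fell, with a summed signal of 1182 to 1596 in PCK livers and 771 to 843 in control livers, led by Krt19 (1.88), Tspan8 (1.54) and Epcam (0.90). Of 10 macrophage markers 9 rose and 0 fell, with sums of 7769 to 10477 in PCK livers and 3528 to 5643 in control livers, led by Lyz2 (2.35), Clec4f (0.83) and C1qb (0.72). Of 11 stellate cell and fibroblast markers 6 rose and 2 fell, with sums of 2558 to 3328 in PCK livers and 1134 to 1805 in control livers, led by Dcn (2.01), Rgs5 (1.42) and Pdgfrb (0.94). Of 9 endothelial markers 1 rose and 4 fell, with sums of 2842 to 3462 in PCK livers and 3271 to 3975 in control livers, where Clec4g (-0.99), Tek (-0.38) and Lyve1 (-0.24) had the largest falls. No marker can be read as absent, because the table holds no detection calls. A signal near the median of the table, 5.66, could not be told from background. A difference in which either group lies near it is therefore, apart from sampling error, a lower bound on the change. This holds for Gpt and Sds in PCK livers. Outside the set it holds for Slc1a2, Tbx3, Klf15 and Ido2 in PCK livers and for Krt19, Tspan8, Epcam and Aldh1b1 in control livers. In whole liver, fewer hepatocytes and less RNA per hepatocyte cannot be told apart, and the part of these other cells in the differences below was not tested.

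Lymphocyte and neutrophil markers lay near the bottom of the signal range. Of 9 T, B and NK cell markers 1 rose, Cd3g (0.03), with sums of 453 to 515 in PCK livers and 424 to 506 in control livers. Of 6 neutrophil markers 3 rose, S100a9 (0.09), Csf3r (0.08) and Cxcr2 (0.03), and 1 fell, with sums of 248 to 257 in PCK livers and 245 to 250 in control livers. These calls were fragile: those of Cd3g, Csf3r and Cxcr2 were lost in 10, 8 and 14 of 21 alternative settings, among them leaving out several single livers, with adjusted p-values up to 0.111, 0.0717 and 0.0931.

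Short motifs chosen by hand were counted in the promoters of these genes, and 4 of the promoters carry the same 9 letters of a known hepatocyte factor. Promoters were read from RefSeq in build GRCr8, from 250 bases before to 50 bases after the start of the gene, for the 38 members with an entry. The motif CAAAGTCCA, a core form of the HNF4A site, was searched on both strands. It lay in 4 of the 38 promoters, and in 0.421% of the promoters of 13544 genes on the array. The array promoters, here and for the motifs below, were not matched to the members for signal. The median mean signal was 10.87 for the 48 members and 5.72 for all 16592 genes. The sequences are shown because the matches of Pipox, Kmo and Cps1 begin at nearly the same distance from the start, at positions -71, -74 and -71, on the opposite strand to the gene, while that of Agxt2 begins at position -48 on the strand of the gene (position -1 is the last base before the start). Capitals mark the match. The windows are chr10:63280390-63280689, minus strand, for Pipox, chr13:90089271-90089570, plus strand, for Kmo, chr9:76063613-76063912, plus strand, for Cps1, and chr2:61063166-61063465, plus strand, for Agxt2.
Pipox: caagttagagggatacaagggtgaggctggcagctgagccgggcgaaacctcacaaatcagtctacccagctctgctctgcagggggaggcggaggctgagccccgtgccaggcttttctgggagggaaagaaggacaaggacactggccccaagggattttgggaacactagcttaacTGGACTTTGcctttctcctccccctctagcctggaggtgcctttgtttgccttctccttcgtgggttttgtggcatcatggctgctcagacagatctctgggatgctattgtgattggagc
Kmo: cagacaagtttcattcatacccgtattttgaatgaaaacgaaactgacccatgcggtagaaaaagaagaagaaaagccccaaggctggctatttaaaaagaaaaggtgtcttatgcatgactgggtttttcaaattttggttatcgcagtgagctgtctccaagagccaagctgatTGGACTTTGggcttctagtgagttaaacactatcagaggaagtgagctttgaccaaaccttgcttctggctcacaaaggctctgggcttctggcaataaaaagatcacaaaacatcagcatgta
Cps1: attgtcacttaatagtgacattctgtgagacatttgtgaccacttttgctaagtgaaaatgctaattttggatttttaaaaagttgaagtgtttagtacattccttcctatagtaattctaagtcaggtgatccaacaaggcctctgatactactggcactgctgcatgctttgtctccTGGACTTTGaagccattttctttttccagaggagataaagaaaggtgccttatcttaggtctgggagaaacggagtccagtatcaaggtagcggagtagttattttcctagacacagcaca
Agxt2: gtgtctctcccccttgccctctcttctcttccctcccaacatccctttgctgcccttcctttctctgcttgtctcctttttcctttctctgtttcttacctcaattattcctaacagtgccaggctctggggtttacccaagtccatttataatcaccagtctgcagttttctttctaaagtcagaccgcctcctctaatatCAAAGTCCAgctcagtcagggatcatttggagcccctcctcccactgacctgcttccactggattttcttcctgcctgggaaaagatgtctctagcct

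Of these 4 genes, Pipox and Kmo fell in PCK livers and Cps1 and Agxt2 were not called, so the motif was present with either outcome. Of the 24 members with a promoter entry that fell, 2 held it. Other motifs, also searched on both strands, were counted as a description. The nuclear receptor core AGGTCA, which does not overlap the shown match in these 4 promoters, lay in 12 of 38 member promoters (31.6%) and in 13.1% of array promoters. The C/EBP motif TTGCNNAA lay in 5 (13.2%) against 9.9%, the cAMP response motif TGACGT in 2 (5.3%) against 9.35%, the E-box CACGTG in 1 (2.6%) against 7.91% and the GC box GGGCGG in 19 (50%) against 49.9%. The forkhead motif TGTTTAC lay in 0 of 38, against 2.86% of array promoters. A match is a run of letters and was not tested as a binding site.

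In the urea cycle 4 of 6 genes fell, 1 rose and 1 was not called. The median difference of the 6 was -0.14. All changes were small, at most 1.37-fold. Nags makes N-acetylglutamate, the obligate activator of carbamoyl phosphate synthetase, and had the largest fall of the 6. Its signal had a lowest, median and highest value of 9.46, 9.61 and 9.78 in PCK livers, against 9.89, 10.06 and 10.27 in control livers. The groups did not overlap, with a fall of 0.46 on the log2 scale (SE 0.07; limma adjusted p = 0.00037).

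Otc, the mitochondrial enzyme that joins carbamoyl phosphate to ornithine, ran from 11.32 over a median of 11.42 to 11.52 in PCK livers, and from 11.62 over 11.73 to 11.87 in control livers. Again no PCK liver reached the lowest control liver, with a fall of 0.32 on the log2 scale (SE 0.04; limma adjusted p = 0.000115). Arg1, the arginase that releases urea, had 11.57, 11.68 and 11.89 as lowest, median and highest values in PCK livers, against 11.85, 11.89 and 11.98 in control livers. It fell by 0.21 on the log2 scale (SE 0.05; limma adjusted p = 0.00455), with PCK 5 alone of its group inside the control range.

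Cps1, the carbamoyl phosphate synthetase that commits ammonia to the cycle, was at 13.21, 13.26 and 13.29 in PCK livers, against 13.25, 13.30 and 13.37 in control livers. The groups overlapped, and the difference of -0.05 was not called (95% interval -0.10 to -0.01; limma adjusted p = 0.0761). Without control 3 it was -0.06 and passed (limma adjusted p = 0.0365). Ass1, which makes argininosuccinate from citrulline and aspartate, had values of 13.35, 13.41 and 13.43 in PCK livers, against 13.39, 13.46 and 13.54 in control livers. Its difference of -0.07 passed narrowly (limma adjusted p = 0.0344), and leaving out PCK 2, PCK 4, PCK 6, control 2, control 5 or control 6 ended the call, with adjusted p-values up to 0.0742. Both genes are among the 66 genes with a mean signal above 13.

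Asl, the lyase that splits argininosuccinate into arginine and fumarate, was the urea cycle gene that rose. It had 10.51, 10.64 and 10.82 as lowest, median and highest values in PCK livers, against 10.13, 10.41 and 10.53 in control livers. It rose by 0.30 on the log2 scale (SE 0.08; limma adjusted p = 0.0147), and the highest control value lay just above the lowest PCK value.

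**Figure D2:**
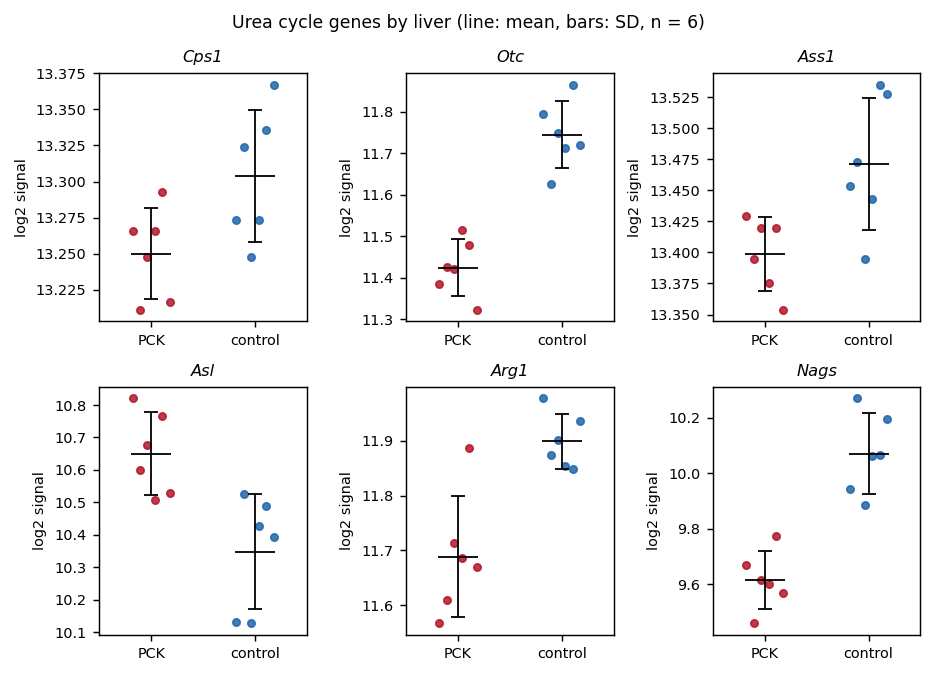
Log2 signal of the 6 urea cycle genes in each liver (y axes: log2 signal on separate scales that do not start at 0, points: livers, lines and bars: mean and SD of 6 livers). Otc and Nags lie lower in all 6 PCK livers than in any control liver, and Asl lies mostly higher.

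Of 32 genes of amino acid and urea cycle transport 7 fell and 4 rose, with a median of -0.0083. The share called was 34.4%, near the 38.3% of all genes. It was below the 54.5% of genes with a mean signal above the median gene. The median mean signal was 7.48 for the transport genes and 7.14 for those brighter genes. Slc25a13, the aspartate-glutamate carrier citrin that supplies cytosolic aspartate to Ass1, fell. Its lowest, median and highest values were 10.28, 10.33 and 10.46 in PCK livers, against 10.89, 10.95 and 11.04 in control livers, a difference of -0.61 ± 0.03 (log2, SE; limma adjusted p = 2.69e-07). Slc25a22, a mitochondrial glutamate carrier, fell by 0.64 on the log2 scale, Slc1a2, a glutamate uptake carrier of pericentral hepatocytes, by 0.90 (a lower bound), and Slc16a10, an aromatic amino acid transporter, by 0.89. The taurine transporter Slc6a6 rose by 0.71 (limma adjusted p = 0.0186; 0.0555 with a replicate block). The mitochondrial ornithine carrier Slc25a15, at 0.13, was not called (limma adjusted p = 0.0793) and was looked up after the rule for named genes had been applied.

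Among the enzymes around glutamate, the alanine aminotransferase Gpt stood out and the others moved little. Of 5 genes 3 fell and 0 rose, with a median of -0.09. Gpt passes the amino group of alanine to glutamate and makes pyruvate for glucose synthesis. Its lowest, median and highest signals were 5.94, 6.16 and 6.25 in PCK livers, against 8.05, 8.61 and 8.96 in control livers. All PCK livers lay more than 1 log2 unit below all control livers. The fitted fall of Gpt was 5.43-fold (difference -2.44, log2, SE 0.16, limma adjusted p = 1.32e-06). Apart from sampling error, this estimate is a lower bound on the fall. The PCK level lay close to the median of the table, 5.66, and could not be told from background. Gpt2, the mitochondrial form and not a member of the set, fell too, by 0.90 ± 0.11 (log2, SE; limma adjusted p = 6.12e-05), with 9.76 to 10.47 in PCK livers and 10.84 to 11.13 in control livers.

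Glud1, the glutamate dehydrogenase that releases ammonia in mitochondria, was at 12.24, 12.26 and 12.29 in PCK livers, against 12.38, 12.46 and 12.62 in control livers. The groups were apart, and the fall was 0.23 on the log2 scale (SE 0.04; limma adjusted p = 0.00122). Got2, the mitochondrial aspartate aminotransferase, had 10.98, 11.04 and 11.09 in PCK livers, against 11.08, 11.12 and 11.19 in control livers, and its fall was small, at -0.09 (limma adjusted p = 0.0138), and no longer passed with a signal-dependent prior variance (adjusted p = 0.0662). The cytosolic form Got1, at 0.45 (95% interval 0.07 to 0.84), was not called (limma adjusted p = 0.0633). It ranged from 10.01 to 10.74 in PCK livers and from 9.36 to 10.44 in control livers, and without control 6, the highest control liver, the difference was 0.57 and passed (adjusted p = 0.0138). Gls2, the liver glutaminase, was at 0.04 (95% interval -0.15 to 0.24; limma adjusted p = 0.745).

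Histidine breakdown was lower at its entry. Of 4 genes 3 fell and 0 rose, with a median of -0.43. Hal, histidase, makes urocanate from histidine and had 10.19, 10.50 and 10.77 in PCK livers, against 11.42, 11.61 and 11.75 in control livers. The groups were far apart, with a difference of -1.14 ± 0.11 (log2, SE; limma adjusted p = 1.72e-05), or 2.21-fold. Uroc1, urocanase, acts next and had 9.68, 9.72 and 9.91 in PCK livers, against 10.04, 10.35 and 10.61 in control livers, a difference of -0.61 ± 0.09 (log2, SE; limma adjusted p = 0.000244). Ftcd, which hands the formimino group to folate at the end of the pathway, had 10.64, 10.79 and 10.90 in PCK livers, against 10.86, 11.04 and 11.20 in control livers, with a difference of -0.25 (limma adjusted p = 0.00778).

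Amdhd1, the imidazolonepropionase between Uroc1 and Ftcd, was not called, at 0.44 (95% interval 0.03 to 0.85; limma adjusted p = 0.0845). Its PCK values ran from 10.17 to 10.75, and 5 of the control values from 9.62 to 10.08, while control 5 was at 10.80, above every PCK liver. Without control 5 the difference was 0.60 and passed (adjusted p = 0.00365).

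The 4 measured members of the kynurenine pathway of tryptophan breakdown fell, with differences of -0.36 to -0.19 and a median of -0.28. Tdo2, the liver dioxygenase that opens the pathway, had 11.74, 11.89 and 12.03 in PCK livers, against 12.09, 12.24 and 12.49 in control livers. The groups did not overlap, and the fall was 0.36 on the log2 scale (SE 0.07; limma adjusted p = 0.00169). Kmo, the kynurenine hydroxylase, had 10.65, 10.82 and 11.00 in PCK livers, against 11.00, 11.18 and 11.27 in control livers, a difference of -0.31 (limma adjusted p = 0.00385). Haao, which makes the precursor of quinolinate, had 9.42, 9.56 and 9.77 in PCK livers, against 9.74, 9.79 and 9.89 in control livers, a difference of -0.24 (limma adjusted p = 0.00674). Kynu, kynureninase, fell by 0.19 on the log2 scale (limma adjusted p = 0.00323) and its groups did not overlap. Acmsd, not a member, diverts the product of Haao away from NAD synthesis, and it rose by 0.84 ± 0.11 (log2, SE; limma adjusted p = 0.000162), with 8.57 to 9.24 in PCK livers and 8.03 to 8.44 in control livers. Aadat, a kynurenine aminotransferase, at -0.07 (limma adjusted p = 0.410), and Qprt, which makes the NAD precursor from quinolinate, at -0.22 (adjusted p = 0.0902), also lie outside the set, were chosen after their values were seen and were not called. The dioxygenase Ido2 (-0.78, limma adjusted p = 3.13e-05, a lower bound) and the aminotransferase Kyat1 (-0.22, adjusted p = 0.0115) fell. Ido2 and Kyat1 too lie outside the set and were chosen after their values were seen.

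Tyrosine breakdown changed little. Of 4 measured genes 1 fell, 1 rose and 2 were not called, with a median of 0.04. Hpd, the dioxygenase that makes homogentisate, had 13.19, 13.24 and 13.27 in PCK livers, against 13.37, 13.42 and 13.53 in control livers. The groups were apart, and the fall was 0.19 on the log2 scale (SE 0.03; limma adjusted p = 0.000175). Hgd, the next enzyme, had 12.49, 12.52 and 12.65 in PCK livers, against 12.35, 12.41 and 12.54 in control livers. Its difference of 0.11 passed narrowly (limma adjusted p = 0.0437), and 13 of the 22 alternative settings ended the call, among them leaving out any 1 PCK liver other than PCK 2 and any 1 control liver other than control 2 and control 6, with adjusted p-values up to 0.0895. Tat, the aminotransferase that starts the pathway and a classic target of glucocorticoids, was at 0.13 (95% interval -0.07 to 0.32; limma adjusted p = 0.290). Fah, the last enzyme, was at -0.03 (95% interval -0.12 to 0.06; limma adjusted p = 0.606).

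Branched-chain amino acid breakdown was called at all 7 genes, 6 lower and 1 higher, with a median of -0.30. Its committed step is the branched-chain ketoacid dehydrogenase complex, and the subunits of that complex went in opposite directions. Bckdhb, the beta subunit of the decarboxylase, had 8.49, 8.63 and 8.79 in PCK livers, against 9.52, 9.56 and 9.58 in control livers. The control livers lay within a narrow band well above all PCK livers, and Bckdhb fell by 0.92 on the log2 scale (SE 0.04; limma adjusted p = 1.43e-07), or 1.90-fold. Bckdha, the alpha subunit that pairs with it, had 8.16, 8.34 and 8.54 in PCK livers, against 7.88, 7.99 and 8.26 in control livers, and rose by 0.33 ± 0.07 (log2, SE; limma adjusted p = 0.00477). Dbt, the acyltransferase core of the complex, fell by 0.16 (log2; limma adjusted p = 0.00631).

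The enzymes that switch the complex moved as well. Bckdk, the kinase that inactivates it, was at 8.09 ± 0.06 in PCK livers and 7.68 ± 0.11 in control livers (log2, SD, n = 6 each) and rose by 0.40 (limma adjusted p = 6.2e-05). Ppm1k, the phosphatase that activates it, had 9.36 to 9.88 in PCK livers and 10.14 to 11.16 in control livers and fell by 0.99 ± 0.19 (log2, SE; limma adjusted p = 0.0019). Bckdk fell outside the rule for named genes and was chosen after its value was seen, as the partner of Ppm1k.

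The 3 members of the set that act downstream fell. Mccc1, a subunit of the leucine pathway carboxylase, had 7.86, 8.02 and 8.14 in PCK livers, against 8.41, 8.60 and 8.81 in control livers, and fell by 0.61 ± 0.07 (log2, SE; limma adjusted p = 6.62e-05). Hibadh, which oxidises hydroxyisobutyrate from valine, fell by 0.31 (log2; limma adjusted p = 5.2e-05) and Ivd, the isovaleryl-CoA dehydrogenase, by 0.30 (limma adjusted p = 0.0134). Outside the set, Mcee, an epimerase of the propionate route, fell by 0.79 ± 0.08 (log2, SE; limma adjusted p = 2.11e-05). Other enzymes of these routes were chosen after their values were seen. Acadsb (-0.55, limma adjusted p = 0.00167), Mccc2 (-0.35, adjusted p = 0.00113), Auh (-0.33, adjusted p = 3.55e-05) and the propionyl-CoA carboxylase subunit Pccb (-0.09, adjusted p = 0.0193) fell. The other subunit Pcca, at -0.0052 (adjusted p = 0.952), and the isoleucine pathway dehydrogenase Hsd17b10, at -0.02 (adjusted p = 0.734), were not called. Bcat2, the mitochondrial branched-chain aminotransferase, which hepatocytes are known to express little, differed by -0.08 (limma adjusted p = 0.000498) between levels of 5.5 to 5.58 in PCK livers and 5.62 to 5.66 in control livers, which lie at or below the median of the table.

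Methionine and methyl group enzymes were split. Of 5 genes 2 fell, 1 rose and 2 were not called, with a median of 0.04. Ahcy hydrolyses S-adenosylhomocysteine, the product of methylation reactions. It had 11.62, 11.83 and 12 in PCK livers, against 12.32, 12.47 and 12.50 in control livers. No values overlapped, and Ahcy fell by 0.63 on the log2 scale (SE 0.06; limma adjusted p = 1.03e-05). Mat1a, which makes S-adenosylmethionine, had 12.46, 12.59 and 12.67 in PCK livers, against 12.66, 12.71 and 12.77 in control livers, a difference of -0.14 (limma adjusted p = 0.0062). Bhmt, which remethylates homocysteine with betaine, rose: it had 13.37, 13.49 and 13.62 in PCK livers, against 13.09, 13.24 and 13.36 in control livers, and the groups did not overlap (difference 0.25 ± 0.05, log2, SE; limma adjusted p = 0.00233). Dmgdh and Sardh, which oxidise dimethylglycine and sarcosine, were at 0.15 (95% interval 0.0049 to 0.30; limma adjusted p = 0.0968) and 0.04 (95% interval -0.15 to 0.22; adjusted p = 0.780). Without control 5 Dmgdh passed, at 0.19 (adjusted p = 0.0411).

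The transsulfuration route, which turns homocysteine into cysteine, had its steps moving apart. Of 4 genes of this route and of taurine synthesis 2 fell and 1 rose, with a median of 0.06. Cbs, the entry enzyme, had 11.00, 11.26 and 11.44 in PCK livers, against 11.44, 11.51 and 11.76 in control livers, a difference of -0.31 ± 0.08 (log2, SE; limma adjusted p = 0.00989). Cth, which releases cysteine, had 12.74, 12.81 and 12.99 in PCK livers, against 12.41, 12.53 and 12.71 in control livers, and rose by 0.26 ± 0.06 (log2, SE; limma adjusted p = 0.00463). In neither gene did the groups overlap, though for Cbs the highest PCK and lowest control values were nearly equal. Cdo1, the cysteine dioxygenase that leads to taurine, had 12.88, 12.92 and 12.98 in PCK livers, against 12.95, 13.04 and 13.13 in control livers, a difference of -0.11 (limma adjusted p = 0.0212). Csad, the decarboxylase that follows it, was at 0.22 (95% interval -0.09 to 0.53; limma adjusted p = 0.259), and between 0.12 without control 5 and 0.30 without control 3. Sqor, the mitochondrial enzyme that oxidises hydrogen sulfide and is not a member, rose by 1.10 ± 0.19 (log2, SE; limma adjusted p = 0.00101), with 9.92 to 10.02 in PCK livers and 7.96 to 9.32 in control livers.

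Serine and glycine enzymes included a dim gene with a wide spread. Sds, serine dehydratase, a periportal enzyme that makes pyruvate from serine, had 5.60, 5.85 and 6.46 in PCK livers, against 6.12, 6.80 and 7.52 in control livers. The groups overlapped, and PCK levels near the median of the table make the difference a lower bound on the change. The fitted difference of -0.80 ± 0.24 (log2, SE; limma adjusted p = 0.0226) became -0.73 and no longer passed without PCK 2 (adjusted p = 0.0502). Its relative Sdsl was at -0.07 (95% interval -0.15 to 0.0046; limma adjusted p = 0.128), at levels near the median of the table. Gldc, the decarboxylase of the glycine cleavage system, rose: it had 9.33, 9.64 and 9.98 in PCK livers, against 9.02, 9.34 and 9.47 in control livers (difference 0.37 ± 0.11, log2, SE; limma adjusted p = 0.0196). Other measured parts of that system did not rise with it, and its enzyme Amt had no probe set. Outside the set, Gcsh fell (-0.25, limma adjusted p = 0.00334) and Dld, at 0.0036, was not called (adjusted p = 0.967). Gcsh and Dld were chosen after their values were seen.

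Most enzymes of the group of proline, lysine and glyoxylate fell, and this group held 3 of the 10 falls of at least 1.5-fold. Of 6 genes 4 fell and 0 rose, with a median of -0.59. Pipox, a peroxisomal oxidase of sarcosine and pipecolate, had 9.82, 10.15 and 10.32 in PCK livers, against 11.20, 11.53 and 11.69 in control livers. The groups were far apart, with a difference of -1.35 ± 0.10 (log2, SE; limma adjusted p = 2.89e-06), or 2.55-fold. Agxt, which detoxifies glyoxylate to glycine and is the gene of primary hyperoxaluria in humans, had 9.93, 10.04 and 10.15 in PCK livers, against 10.30, 10.71 and 11.11 in control livers, a difference of -0.67 ± 0.12 (log2, SE; limma adjusted p = 0.00138). Prodh, proline dehydrogenase, had 10.23, 10.39 and 10.65 in PCK livers, against 10.70, 11.14 and 11.29 in control livers, a difference of -0.64 ± 0.11 (log2, SE; limma adjusted p = 0.000762). Prodh2, which acts on hydroxyproline, the amino acid of collagen, fell by 0.53 ± 0.08 (log2, SE; limma adjusted p = 0.00046). Aass, which starts lysine breakdown, was at -0.02 (95% interval -0.15 to 0.10; limma adjusted p = 0.792).

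Agxt2, a mitochondrial aminotransferase of glyoxylate, was at -0.24 (95% interval -0.66 to 0.18; limma adjusted p = 0.358). Its PCK values ran from 9.15 to 9.42, and its control values from 8.67 in control 4 to 10.17 in control 3. Without control 4 the difference was -0.42 and passed (adjusted p = 0.011).

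**Figure D3:**
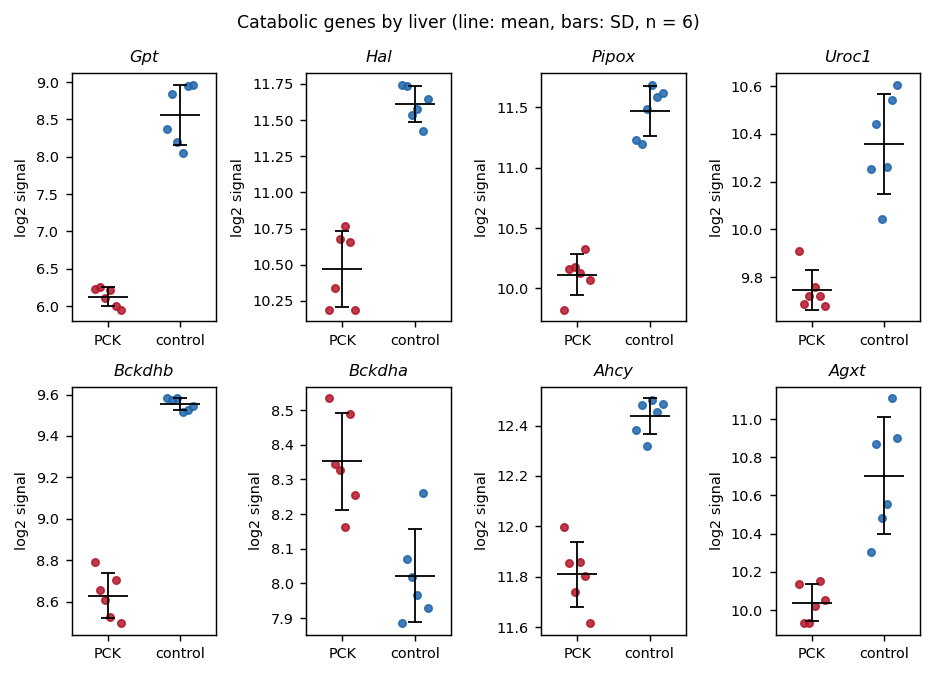
Log2 signal of 8 catabolic genes in each liver (y axes: log2 signal on separate scales that do not start at 0, points: livers, lines and bars: mean and SD of 6 livers). In 7 of the panels every PCK liver lies below every control liver; Bckdha is the exception and is higher in PCK livers.

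The spread between livers of a group differed from gene to gene. The widest control ranges were those of Agxt2 (1.49 log2 units), Sds (1.40), Amdhd1 (1.18), Got1 (1.08) and Gpt (0.91), where the PCK ranges were 0.27, 0.86, 0.58, 0.73 and 0.31. In 29 of the 48 members the SD over control livers was larger than that over PCK livers, 60.4%, near the 56.0% of all genes. Among PCK livers, PCK 6 had the lowest value of its group in 20 of 48 members and the highest in 0, and PCK 5 had the highest in 13 and the lowest in 0. PCK 6 was also the highest PCK liver for Krt19 (8.28) and Lyz2 (11.68), and the part of bile duct and macrophage markers in its low values was not tested. Without PCK 6, 34 members were called, 29 lower and 5 higher. Among control livers, control 3 had the lowest value in 17 members, and control 5 and control 6 had the highest in 14 each.

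**Figure D4:**
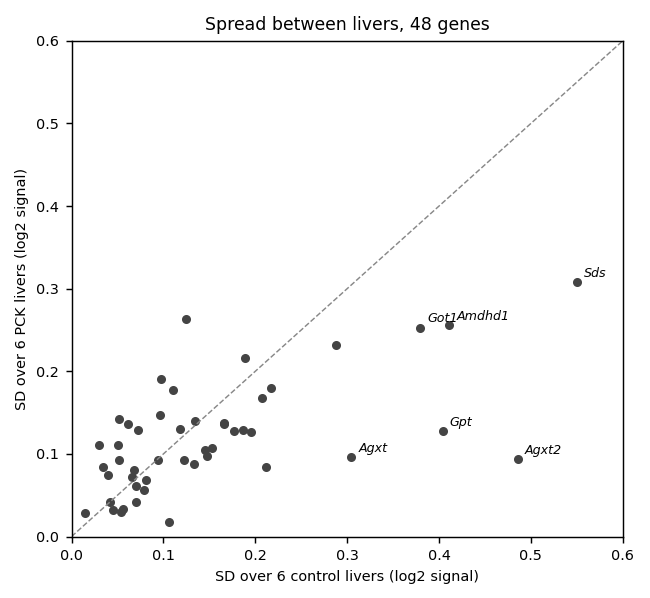
Standard deviation of log2 signal over 6 PCK livers (y axis) against that over 6 control livers (x axis) for the 48 enzymes, with the line of equality dashed and genes with an SD over 0.3 named. Agxt2, Gpt and Agxt lie far below the line, with SDs of 0.09, 0.13 and 0.10 in PCK livers and 0.49, 0.40 and 0.30 in control livers.

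**Figure D5:**
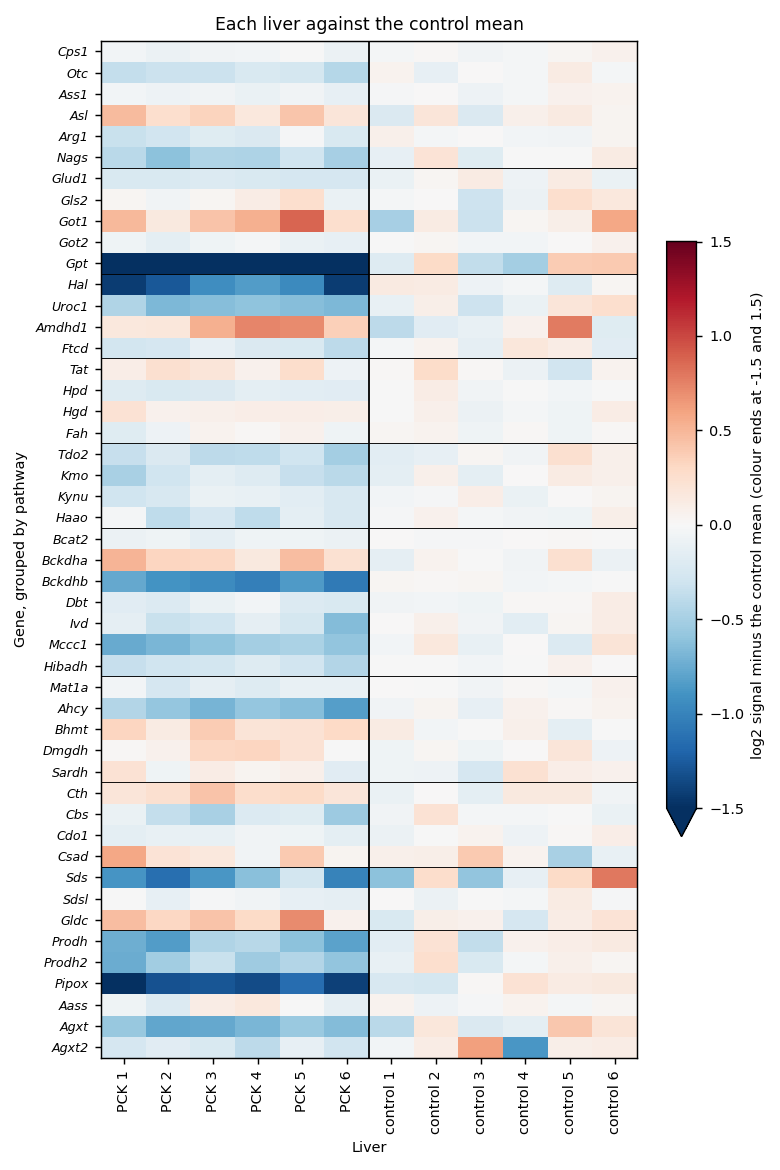
Log2 signal of each member in each liver minus the mean of the 6 control livers (rows: genes by pathway, columns: livers, colour: difference, limited to -1.5 and 1.5). Gpt, Hal, Pipox and Bckdhb are low in all 6 PCK livers, and Amdhd1 in control 5 and Agxt2 in control 3 and control 4 depart from their group.

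Further enzymes of the same pathways, outside the 48, fell more often than they rose. Of 38 measured, 20 fell and 5 rose, with a median of -0.16. The share called was 65.8%, against 38.3% of all genes. These genes are bright, and 65.8% is near the 61.2% of genes with a mean signal of 9 or more. By direction 52.6% were lower and 13.2% higher, against 31.2% and 30.0% of genes at that level. The 5 largest changes were those of Sqor, Ppm1k, Gpt2, Acmsd and Mcee, given above. Amino acid synthesis enzymes and targets of ATF4, the factor of the amino acid starvation response, went both ways. Of 17 measured, 4 rose and 2 fell (35.3% called, near the 38.3% of all genes), with a median of 0.02. Atf4 itself rose by 0.28 (limma adjusted p = 0.0027), its relative Atf3 by 0.29 and the proline synthesis gene Aldh18a1 by 0.17. The mitochondrial folate enzyme Aldh1l2 fell by 0.47 on the log2 scale and the serine synthesis enzyme Psph by 0.21. Atf3, Aldh18a1 and Psph lay near the median of the table in both groups.

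Among 24 regulators of liver metabolism 9 fell and 2 rose, with a median of -0.09. The share called was 45.8%, against 38.3% of all genes and 54.5% of genes with a mean signal above the median gene. The median mean signal was 7.39 for the regulators and 7.14 for those brighter genes. By direction 37.5% of the regulators were lower and 8.33% higher, against 30.7% and 23.8% of the brighter genes. Klf15, a factor known in mouse liver to drive amino acid breakdown genes in fasting, had 5.75 to 6.06 in PCK livers and 6.37 to 6.68 in control livers and fell by 0.62 ± 0.06 (log2, SE; limma adjusted p = 1.73e-05), at dim levels. The bile acid receptor Nr1h4 fell by 0.59, the insulin-regulated factor Foxo1 by 0.53, the hepatocyte factor Prox1 by 0.48 and the Wnt effector Tcf7l2 by 0.45 on the log2 scale. Hnf4a, whose motif is shown above, fell by 0.29 on the log2 scale (limma adjusted p = 0.00136), with 11.41 to 11.63 in PCK livers and 11.77 to 12.02 in control livers. The glucagon receptor Gcgr rose by 0.41 (limma adjusted p = 0.000535), and the glucocorticoid receptor Nr3c1, at -0.03, was not called (adjusted p = 0.807). Hnf4a, Gcgr and Nr3c1 were chosen after their values were seen.

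Position along the liver lobule was described with markers that are not members. Of 11 periportal markers 2 fell and 1 rose, with a median of -0.04: Apoa4, an apolipoprotein, fell by 1.23 on the log2 scale, the glucose synthesis enzyme Fbp1 by 0.06 (a call lost in 10 of 22 settings, with adjusted p-values up to 0.0977), and the aldehyde dehydrogenase Aldh1b1, rose by 2.57. Their summed linear signal was 43190 to 45425 in PCK livers and 40423 to 47430 in control livers. Of 11 pericentral markers 7 fell and 0 rose, with a median of -0.45 and sums of 23183 to 25664 in PCK livers and 26807 to 33709 in control livers. The nuclear receptor Nr1i3 fell by 2.42 on the log2 scale, the transcription factor Tbx3 by 1.0 and Slc1a2 by 0.90, both as lower bounds. No test was made of a difference between the zones.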

How the data were processed

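Arrays of 12 livers, 6 PCK and 6 control, were analysed. Per the labels' protocols, liver RNA was extracted with Trizol, and biotinylated cRNA was made for Affymetrix arrays. The authors deposited 1 table of already normalized log2 signals for 19239 probe sets, with scale and normalization inferred from the values, which lie between 5.14 and 13.98 (median 5.66). Every deposited column holds 1 and the same set of values in another order, which quantile normalization produces, so a difference in total RNA would have been removed. No source used here names the summarisation method or the array type. The platform annotation named 16592 probe sets, 1 for each gene, and left 2647 unnamed. The members were matched by platform symbol; genes of the other lists also by the RefSeq symbol of their gene identifier.

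The 16592 named genes were fitted, with no filter, in limma 3.58.1 under R 4.3.3 (lmFit and eBayes, 2-sided, Benjamini-Hochberg threshold 0.05). Differences are PCK minus control, SE is moderated and intervals cover 95%. Figures used matplotlib 3.10.9 in Python 3.11.15. The members, lists and tests were chosen with earlier results of these data known. All members were named, and from other lists up to 5 called genes (3 for markers, or the 2 with the smallest p where none was called) with the largest differences. Values by liver are given for the urea cycle and up to 3 called members per pathway; other genes are marked in the text. The fit was tested on simulated data. Alternatives varied normalization, filter, probe sets, variance model, array weights, replicate block, thresholds and the arrays left out. Motifs were chosen with the calls in view. The number of arrays limits the precision.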

Additional observations from a re-analysis of the deposited data

Results flagged for a closer look

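Values that stood apart from the other 5 livers of their group were found in 14 of 184 groups of 6 livers examined, of which 5 were among the 96 groups of the members. Chance alone flags about 1 group in 20. Among members, PCK 1 was highest of its group for Hgd, at 12.65 against 12.49 to 12.53 in the other PCK livers, and for Uroc1, at 9.91 against 9.68 to 9.76. PCK 3 was lowest for Bcat2, at 5.5 against 5.55 to 5.58. Control 2 was highest of the control livers for Hpd, at 13.53 against 13.37 to 13.42, and for Cbs, at 11.76 against 11.44 to 11.53. The other pathway genes gave 2 such values. Control 5 was low for Gpt2, at 10.84 against 11.08 to 11.13 in the other control livers, and control 6 was high for Acmsd, at 8.44 against 8.03 to 8.18.

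The remaining 7 were markers. PCK 6 was highest for Krt19 (8.28), Lyz2 (11.68), C1qb (9.93) and Cxcr2 (5.38). PCK 2 was highest for Rbp4 (13.47) and Serpina1 (13.56), and control 4 for Tspan8 (5.30).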

How the results depend on the processing

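Of the 36 called members, 29 kept their call and direction in each of up to 22 alternatives to the reported fit, 7 lost the call in at least 1 and 0 changed direction. The 7 were Hgd, Ass1, Got2, Sds, Cdo1, Ivd and Asl; 5 uncalled members, Cps1, Got1, Amdhd1, Dmgdh and Agxt2, were called in at least 1. Differences near 0 changed sign in 3 uncalled members: with 1 array left out, Gls2 ranged from -0.017 (without control 3) to 0.095, Sardh from -0.014 (without control 3, and -0.00091 without PCK 1) to 0.081, and Aass from -0.061 to 0.012 (without PCK 2). Leaving out 1 array at a time gave 34 to 36 called members, 28 to 31 lower and 5 to 7 higher, 47 to 54 other pathway genes, 34 to 40 lower and 12 to 17 higher, and 5731 to 6367 genes, 3014 to 3487 lower and 2679 to 2880 higher. At an adjusted p under 0.01, 3 members were higher and 2168 of all genes were lower. With a required change of 1.5-fold, 10 members were called, 10 lower and 0 higher, 13 other pathway genes, 10 lower and 3 higher, and 768 genes, 323 lower and 445 higher. Centring on the mean of the brightest 25% of genes, chosen after seeing the data, gave 35 members, 30 lower and 5 higher, and shifted the difference by 0.0039.

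No pairing of the livers by replicate number was seen. Deviations of same-numbered livers correlated above 0.1 in 1 of 6 pairs. Of the 6 PCK livers, 1 was closest to the control of its number. With 6 pairs, this check could miss a weak pairing. With the replicate block 31 members were called, 26 lower and 5 higher, and 5423 genes. Among named genes outside the set, Cd3g, Csf3r, Cxcr2, Fbp1, Lyve1 and Slc6a6 lost their call in at least 1 setting.

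Signals near the table's lower end, as for Bcat2, Sdsl, Sds and Gpt in PCK livers, could not be told from background.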
